A study of Caenorhabditis elegans with 4 samples.

Results

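Chromosome V of Caenorhabditis elegans carried 357 MAU-2 sites in embryos, out of 2063 on the 6 nuclear chromosomes. MAU-2 is the worm member of a conserved family that works with SCC-2 to load cohesin onto chromosomes. Cohesin is the ring-shaped complex that holds sister chromatids together and folds chromatin into loops, and its loader is known to sit at defined places along chromosomes. Each worm autosome has a gene-dense centre and 2 arms that recombine more and hold more repeats. The right arm of V also carries the tandem array of 5S ribosomal RNA genes and SL1 genes, which encode the spliced leader RNA that is joined to the front of many worm messenger RNAs.

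The sites were found by chromatin immunoprecipitation and sequencing (ChIP-seq) in wild-type N2 embryos of mixed stages, from a mixed population of males and hermaphrodites kept at 20 degrees Celsius. A rabbit polyclonal antibody raised against a stretch of MAU-2 was used. Of the 4 samples, 2 are ChIP replicates and 2 are input DNA, whose files were not analysed here, and whether the replicates came from separate cultures is not stated. Members were chosen by position alone: all V peaks of 3 deposited peak lists, 1 per ChIP replicate and 1 for the whole series, were pooled, and peaks sharing at least 1 bp were merged into a site. The series-wide list has no sample of its own and is not independent of the replicate lists. Presence in all 3 lists is thus not 3 separate detections. Coordinates are on WormBase WS220 and count from 1. Scores are those of the authors' peak caller, on a scale the files do not name, and a site takes the highest score of its peaks in a list.

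The lists differed in how many V peaks they held. Replicate 1 had 328, replicate 2 had 141 and the series-wide list had 195, which is 17.5%, 18.5% and 19.3% of the nuclear peaks of each list. They covered 0.939%, 0.682% and 0.543% of V, taken as 20.9 Mb long. Median V peak widths were 347 bp in replicate 1, 537 bp in replicate 2 and 295 bp in the series-wide list. Replicate 1 V peaks scored between 50.27 and 3166.99, with a median of 119.6. In replicate 2 the lowest score was 50.28, the median 142.1 and the highest 3100. The series-wide V peaks reached 68.86, with a median of 7.92. Scores of the series-wide list are on another scale, so no score was compared across the 2 kinds of list. Peak lists hold no read numbers, so depth is unknown and a site missing from a list may have been below that list's threshold.

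The largest class of V sites came from replicate 1 alone, and sites in all 3 lists were the next largest. Replicate 1 alone held 175 sites (49.0%, 95% exact Clopper-Pearson interval 43.7 to 54.3), beside 50.8% of all nuclear sites. All 3 lists held 97 sites (27.2%, 22.6 to 32.1), beside 25.1% of all nuclear sites. The other combinations were smaller, with 27 sites in the series-wide list alone, 22 in both replicates but not the series-wide list, and 21 in the series-wide list and replicate 1. A further 11 were in the series-wide list and replicate 2, and 4 in replicate 2 alone. The V shares were thus near those of the whole genome. Intervals cover counting error only and treat neighbouring sites as independent.

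Sites in all 3 lists took 55.5% of the 357 sites' total width and had higher median scores than each other class. Their median replicate 1 score was 566.9, against 82.8 for sites of replicate 1 alone, and their median replicate 2 score was 224.6, against 55.9 for the 4 sites of replicate 2 alone. Median width was 799 bp in all 3 lists, 242 bp in replicate 1 alone and 184 bp in the series-wide list alone. A merged site runs to the outermost edges of its peaks, so a site in more lists is wider in part by construction. The ranges overlapped, from 64 to 3818 bp for replicate 1 alone and from 259 to 7720 bp for all 3 lists.

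**Figure D1:**
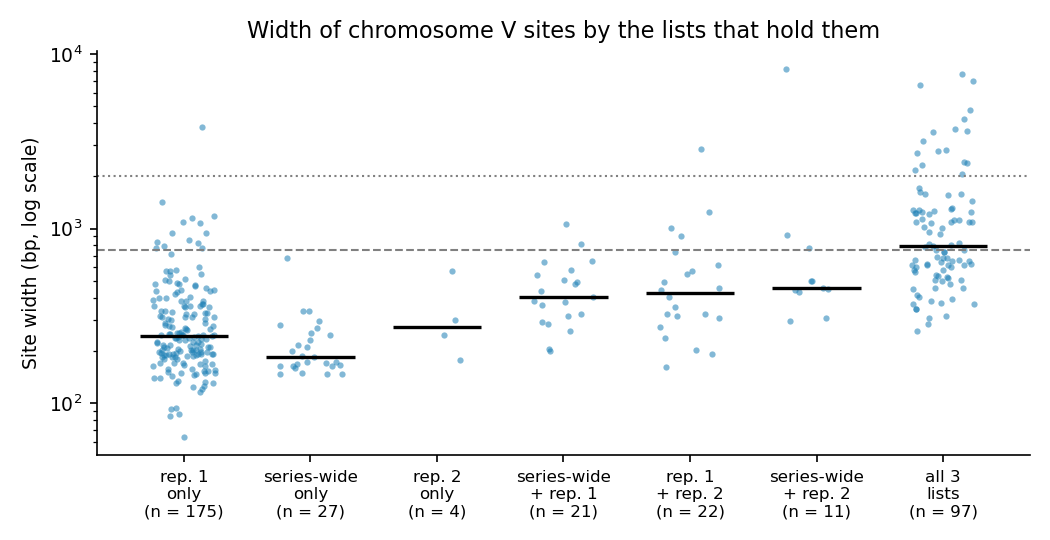
Width of each of the 357 chromosome V sites (points, bp on a log scale) by the peak lists that hold it, with class medians as bars. The dashed line marks 750 bp, up to which sites in all 3 lists are called sharp, and the dotted line marks 2000 bp, above which sites are called wide; 17 of the 20 wide sites are in the class of all 3 lists.

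Recovery of replicate 1 V peaks in replicate 2 rose with score. Among the 82 replicate 1 peaks of the lowest score quartile, 9 (11.0%, 5.14 to 19.8) overlapped a replicate 2 peak. The second and the third quartile gave 24.4% and 34.1%, and the highest gave 91.5% (83.2 to 96.5). In replicate 2, the share found in replicate 1 was 27 of 36 peaks (75%) in the lowest quartile and 33 of 35 (94.3%) in the highest, and these intervals overlap. The second and the third quartile of replicate 2 gave 82.9% and 97.1%. Peak width was not taken into account. For all V peaks, 40.2% of replicate 1 and 87.2% of replicate 2 peaks had a counterpart. Replicate 1 held 328 V peaks and replicate 2 held 141, so these shares differ in part through list size. Such shares for the other chromosomes are not given here, so nothing particular to V is shown.

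A comparison with the other 5 nuclear chromosomes asked whether series-wide peaks on V overlapped both replicate lists more often. As the series-wide list is not independent of the replicates, such overlap does not measure recurrence in separate data. Of the 195 series-wide peaks on V, 133 (68.2%, 61.2 to 74.7) had a counterpart in each replicate, against 478 of 817 (58.5%, 55.0 to 61.9) elsewhere and 60.4% over all 6. The difference passed the threshold of 0.05 (Fisher's exact test, two-sided, p = 0.0144, adjusted p = 0.0288 over 2 such comparisons), but it depended on how peaks were counted. All Fisher's tests here treat peaks or sites as independent, which neighbouring ones are not. Of the 133 peaks, 42 lay inside wide sites. Several series-wide peaks can share 1 replicate peak there, and in narrower sites too. On V, 18 sites in all 3 lists held several series-wide peaks, 56 peaks together, and only 7 of these sites were wide. Without peaks over 2000 bp and the end peaks of each chromosome the call held (66.9% against 57.3%, Fisher's exact p = 0.0189). This left in the shorter series-wide peaks inside wide sites and those that share a narrower site. It therefore cannot show what part shared replicate peaks play. Counted as merged sites the shares were 62.2% and 56.97% (Fisher's exact p = 0.247), and with a reciprocal overlap of at least 50% V was lower, at 26.7% against 35.99% (p = 0.0147). Peaks over 2000 bp made up 6.15% of the V list (12 of 195) and 4.41% elsewhere, beside 4.74% over all 6, a difference that was not detectable (Fisher's exact p = 0.347, adjusted p = 0.347). Further comparisons were added after seeing the data and were not adjusted. The replicate 2 list gave 12.8% against 6.60% (Fisher's exact p = 0.0217) and the replicate 1 list 4.57% against 3.03% (Fisher's exact p = 0.172). Limits of 1000 bp and 3000 bp in the series-wide list gave Fisher's exact p = 0.783 and p = 0.789.

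Wide regions took a large part of the bases held by V sites. There were 20 merged sites over 2000 bp, or 5.60% of V sites (3.46 to 8.52) beside 3.83% of all nuclear sites, and they took 34.3% of the width of all V sites. Of these, 17 were in all 3 lists, 2 in 2 lists and 1 in 1 list. There were 7 in the left end region, 7 in the centre and 6 in the right end region (the first 33.3%, the middle and the last 33.3% of the length). The narrowest was 2065 bp wide, and the widest site below the limit was 1707 bp wide. Sites over 2000 bp took 45.1% of site width on chromosome I and 14.2% to 24.7% on II, III, IV and X. Sites picked for width take a large share of it in part by construction.

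The highest-scoring part of V was a stretch of 16833 bp from 17115348 to 17132180 on the right arm, where 4 sites in all 3 lists covered 83.5% of the bases. Its widest site, from 17119901 to 17127620, was 7720 bp wide and scored 3100 in both replicates and 68.86 in the series-wide list. A gap of 321 bp separated it from a site of 4239 bp, from 17127942 to 17132180, with scores of 3100, 3100 and 67.44. To their left lay a site of 826 bp from 17115348 to 17116173, which scored 3166.99 in replicate 1, 757.5 in replicate 2 and 64.70 in the series-wide list, and one of 1276 bp from 17117711 to 17118986, with 3100, 1133 and 50.88. All 4 were thus high in each list, and they held the first 3 places and the sixth among V sites in the series-wide list. The edges of the widest site differed: its replicate 1 peak was 7720 bp wide, its replicate 2 peak 6901 bp and its series-wide peak 6712 bp. In the RefSeq gene table (WBcel235), 15 of 16 rrn-4 genes, which encode 5S ribosomal RNA, and 12 of 12 sls-1 genes, which encode SL1 RNA, are on V, and each of the 12 sls-1 genes is a direct neighbour of an rrn-4 gene. That table is on another build, so whether these sites lie on those genes was not tested. Signal at a tandem array can also be present in input, which was not analysed here.

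Other wide regions were recovered with nearly the same edges in every list. The site from 10605591 to 10612551 was 6961 bp wide and scored 3100 in both replicates and 37.61 in the series-wide list. Each list held it as a single peak, covering 99.3% of it in replicate 1, 100% in replicate 2 and 99.1% in the series-wide list. A site of 2777 bp from 5283169 to 5285945 scored 3100 in replicate 1, 1608 in replicate 2 and 60.52 in the series-wide list, place 4 on V there. One of 3575 bp from 4333146 to 4336720 scored 3100, 2035 and 23.36. In all, 8 of the 20 wide sites had exactly 1 peak in each list. The score of 3100 occurred in 10 V sites in replicate 1, of which 9 were wide, and in 3 in replicate 2, all wide. Ties at this value, which 42 nuclear peaks of replicate 1 share, give no order among these sites.

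At 7 wide sites the series-wide list broke the region into several peaks, and at 4 of them each replicate list had a single peak. The clearest case was the site from 3434552 to 3441161, 6610 bp wide. Replicate 1 covered 99.8% of it with 1 peak scoring 3100, and replicate 2 covered 99.5% with 1 peak scoring 1294. The series-wide list held 7 separate peaks there, covering 36.1%, with scores between 2.76 and 6.38. Its best peak thus ranked 123 among the 195 V peaks of the series-wide list, while the site ranked 2 in replicate 1, tied with the others at 3100, and 8 in replicate 2. A site of 4745 bp from 6171584 to 6176328 had 6 series-wide peaks covering 68.1%, the highest at 11.44, beside scores of 3100 and 880.8 in the replicates. Across the 7 such sites the series-wide list covered a median of 68.1% of the width.

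**Figure D2:**
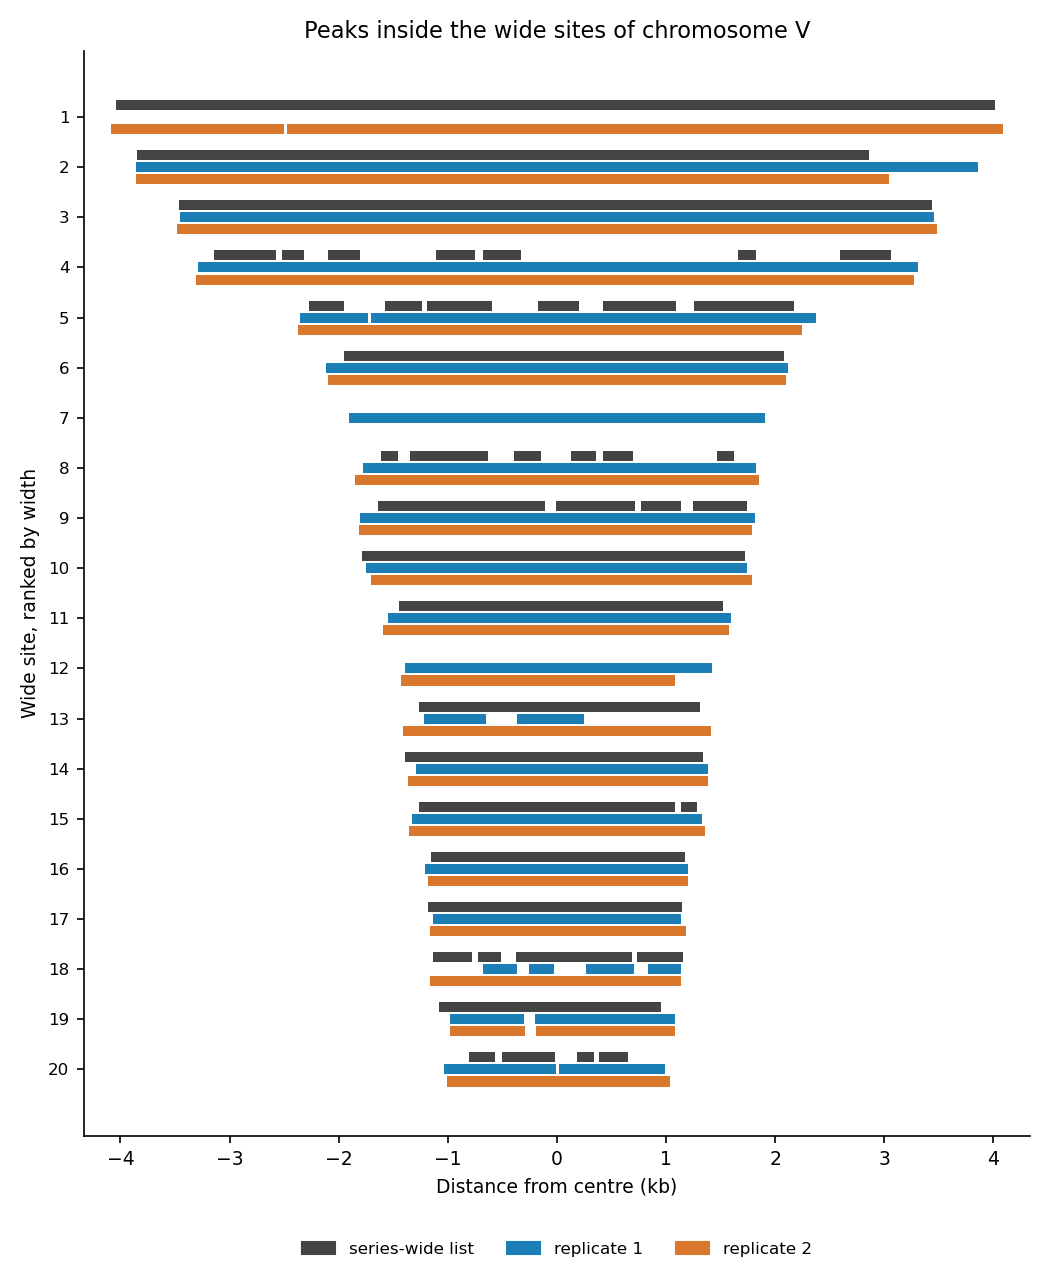
Peaks of the 3 lists inside the 20 wide sites of chromosome V, ranked by width from top to bottom and drawn to scale as distance from the site's centre in kb. The site ranked 4 shows 7 short series-wide peaks over single replicate peaks, the first lacks replicate 1 and the seventh has replicate 1 only.

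Some wide sites differed sharply between the replicates. The widest V site, of 8178 bp from 7916865 to 7925042, had no replicate 1 peak, while replicate 2 held 2 peaks scoring 435.3 and 2237 and the series-wide list 1 peak of 8055 bp scoring 16.07. Its left neighbour, 769 bp wide from 7912914 to 7913682, was likewise in replicate 2 (172.7) and the series-wide list (12.73) only. In the opposite direction, the site of 3818 bp from 6176853 to 6180670 was in replicate 1 alone, with a score of 787.9, and was the highest-scoring V site of that class. The site of 2711 bp from 7988827 to 7991537 scored 2993 in replicate 1 and 51.01 in replicate 2, ranks 12 of 328 and 138 of 141. That of 3696 bp from 8699247 to 8702942 scored 1679 and 57.01, ranks 16 and 126. One of 3624 bp from 5073236 to 5076859 scored 2807 and 129.8, ranks 13 and 76. These 3 regions were nearly equally wide in both replicates, with 2661 and 2711 bp, 3597 and 3696 bp, and 3618 and 3599 bp.

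Replicate scores were compared at the 119 V sites in both replicate lists. Replicate 1 was higher at 97 of them (81.5%), replicate 2 at 19, and 3 were equal at 3100. The median ratio of replicate 1 to replicate 2 score was 2.16. Ranks followed each other with Spearman's rho = 0.63 over the 119 sites, rho = 0.65 over the 101 sites up to 2000 bp, and rho = 0.76 over 488 sites of the other chromosomes. These values are descriptions across sites, which share 2 libraries. The lowest V scores were 50.27 in replicate 1 and 50.28 in replicate 2, and the thresholds of the lists are not given.

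**Figure D3:**
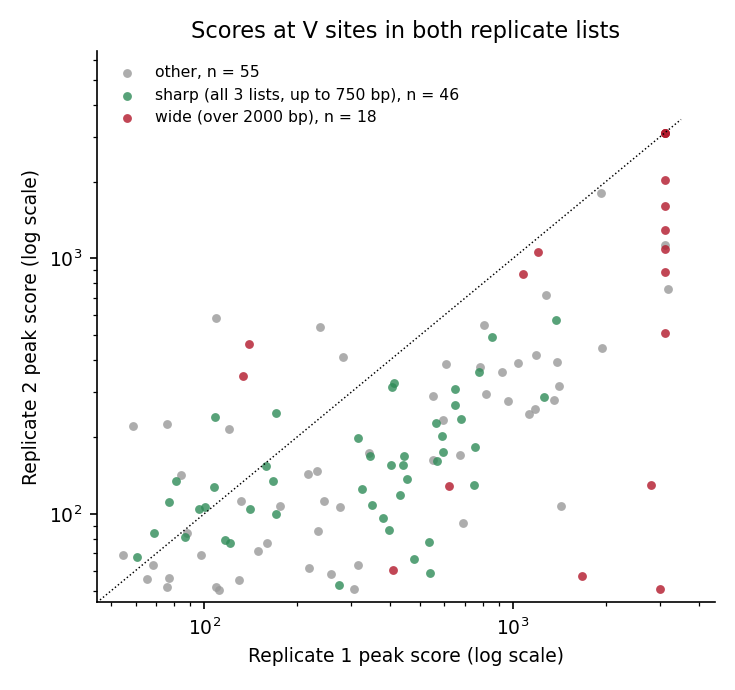
Peak scores of replicate 1 and replicate 2 (both on log scales) at the 119 chromosome V sites in both replicate lists, coloured as wide, sharp or other, with equal scores on the dotted line. Of the points, 97 lie below the line, and 3 wide sites with replicate 1 scores of 1679 to 2993 lie far below it.

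The 8 sites with the lowest ratio of replicate 1 to replicate 2 score lay in 3 places. The lowest ratio, 0.186, was at a site of 1224 bp from 1637882 to 1639105, with scores of 109.3 and 586.5. A group of 6 sites from 9428383 to 9439896 held 3 of them, with ratios of 0.388, 0.339 and 0.303. Their replicate 1 scores were 134.1, 76.08 and 139.4 and their replicate 2 scores 345.9, 224.6 and 460.5. Replicate 2 covered the first of them with 1 peak of 2301 bp, where replicate 1 had 4 peaks of at most 440 bp. From 17384101 to 17394567, 4 sites with ratios between 0.266 and 0.563 made up the remaining place.

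V sites were unevenly spaced. The median gap between neighbouring sites was 23690 bp, and 126 of the 356 gaps (35.4%) were at most 5000 bp. A group was defined as 4 or more sites with gaps of at most 5000 bp. There were 12 groups with 69 sites (19.3% of V sites), beside 39 pairs, 15 triplets and 165 single sites. Of the grouped sites 28 (40.6%) were in all 3 lists, against 69 of 288 (23.96%) of the others, which is a description with no test. Of the 12 groups, 1 lay in the left end region, 6 in the centre and 5 in the right end region. Spacing and groups on the other chromosomes are not given here, so nothing particular to V is shown.

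All 6 central groups lay between 8489143 and 9439896. In the 1 Mb bin from 8 to 9 Mb, V held 39 sites, more than in any other bin, and 15 of them were in all 3 lists. The group from 8886838 to 8898653 had 7 sites, of which 4 were in all 3 lists. At these 4 sites replicate 1 held peaks of 1296, 1306, 1247 and 1248 bp with scores of 1191, 1035, 1127 and 1405. Its 3 other peaks in the group were 209 to 288 bp wide, scored 55.82 to 66.87 and were in no other list. Replicate 2 had 4 matching peaks of 1287, 1203, 1179 and 1084 bp scoring 419.5, 391.0, 245.2 and 316.5. The series-wide list had 7 peaks in the group, from 212 to 497 bp wide, with scores from 6.54 to 17.80. At the 4 sites in all 3 lists, peak widths differed little within each replicate, while replicate 2 scores ranged from 245.2 to 419.5. The group from 8844715 to 8854059 had 3 sites in all 3 lists and a median replicate 1 score of 965.9 over 5 peaks. The group from 9086867 to 9096131 had 2 sites in all 3 lists and a replicate 1 maximum of 918.3. A further group, from 8694638 to 8714981, spanned 20344 bp and held 2 wide sites but only 1 site in all 3 lists, and its 3 replicate 2 peaks scored between 53.12 and 60.17. The group from 8489143 to 8500698 had 6 sites, 2 of them in all 3 lists, and site bases made up 14.8% of its span.

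The group with most sites held 9, from 17384101 to 17394567 on the right arm, and 6 were in all 3 lists. Its replicate 2 scores ran from 54.73 to 539.9 with a median of 214.3 over 7 peaks, while replicate 1 had 9 peaks from 59.04 to 237.3 with a median of 79.52. The widest of its sites, from 17384101 to 17385392, scored 237.3, 539.9 and 31.44 in replicate 1, replicate 2 and the series-wide list. The group from 14750804 to 14757602 had 6 sites, and its highest, a wide site from 14755435 to 14757602, scored 1075, 865.9 and 31.38. Each replicate held this site as 2 peaks, and the series-wide list held it as 1 peak of 2035 bp. A compact group of 4 sites from 16040137 to 16042798 scored at most 306.8 in replicate 1 and 106.2 in replicate 2.

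A pair of groups came almost wholly from the series-wide list. From 6082057 to 6089203, 5 of 6 sites were in the series-wide list alone, and the remaining one was also in replicate 2, with a score of 119.0. The median series-wide score there was 3.99. From 20434921 to 20437187, 3 of 4 sites were in the series-wide list alone, the remaining one was also in replicate 1 (59.48), and series-wide scores ran from 3.47 to 3.96. Together these groups held 8 of the 27 V sites found only in the series-wide list.

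**Figure D4:**
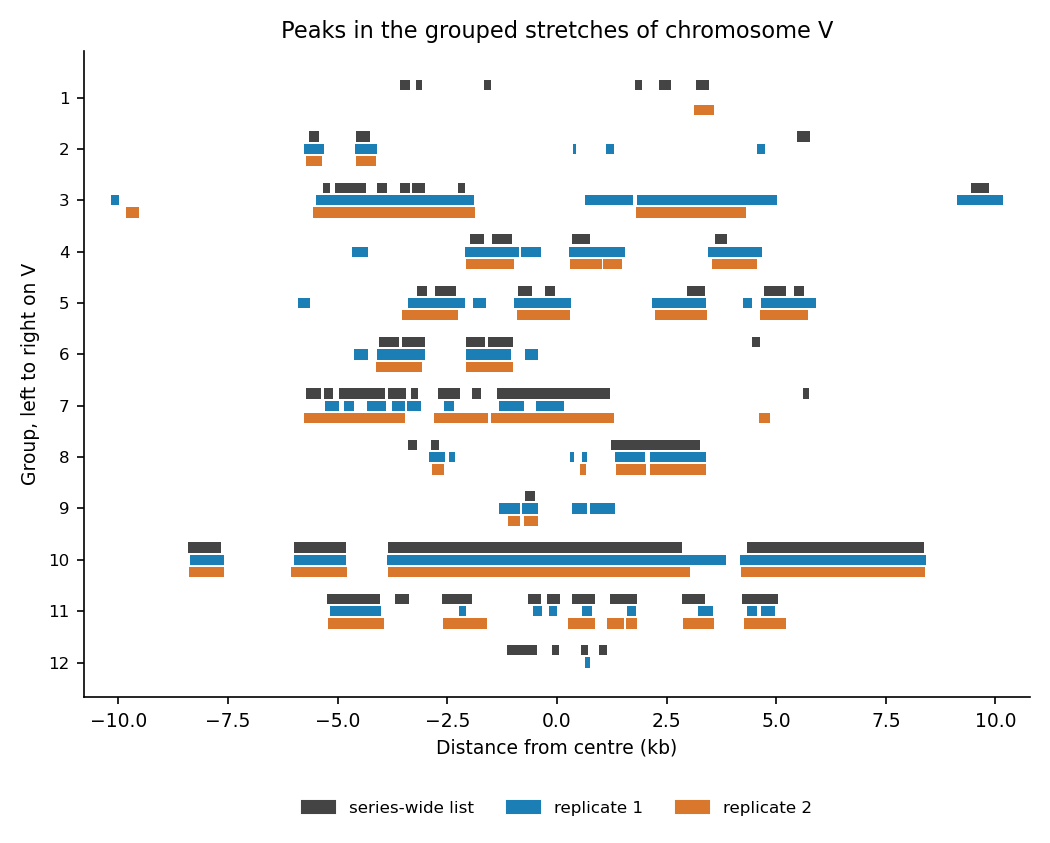
Peaks of the 3 lists in the 12 groups of chromosome V (4 or more sites with gaps of at most 5000 bp), in chromosome order from top to bottom and drawn as distance from the group's centre in kb. Group 10 is nearly filled in every list, group 5 shows 4 broad replicate peaks of like width, and groups 1 and 12 consist almost only of series-wide peaks.

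Over the length of V, sites in all 3 lists were a smaller share in the left end region than in the centre. The left end region held 109 sites, the centre 110 and the right end region 138, or 15.6, 15.8 and 19.8 per Mb. In all 3 lists were 18 of the left sites (16.5%, 10.1 to 24.8), 39 of the central ones (35.5%, 26.6 to 45.1) and 40 of the right ones (29.0%, 21.6 to 37.3). The intervals of left and centre did not overlap, whereas that of the right end region overlapped both, and no test between regions was made. Replicate 1 alone held a like share in each, at 51.4%, 47.3% and 48.6%. Sites of the series-wide list alone numbered 16, 4 and 7, and 5 of the 16 lay in the group from 6082057 to 6089203. Both end regions together held 69.2% of V sites (64.1 to 73.9), which includes the 66.7% of an even spread, and 59.8% (49.3 to 69.6) of the sites in all 3 lists. By list, the left end region had 27.1% of replicate 1, 23.4% of replicate 2 and 30.8% of series-wide V peaks, and the right one 41.2%, 39.7% and 34.4%.

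**Figure D5:**
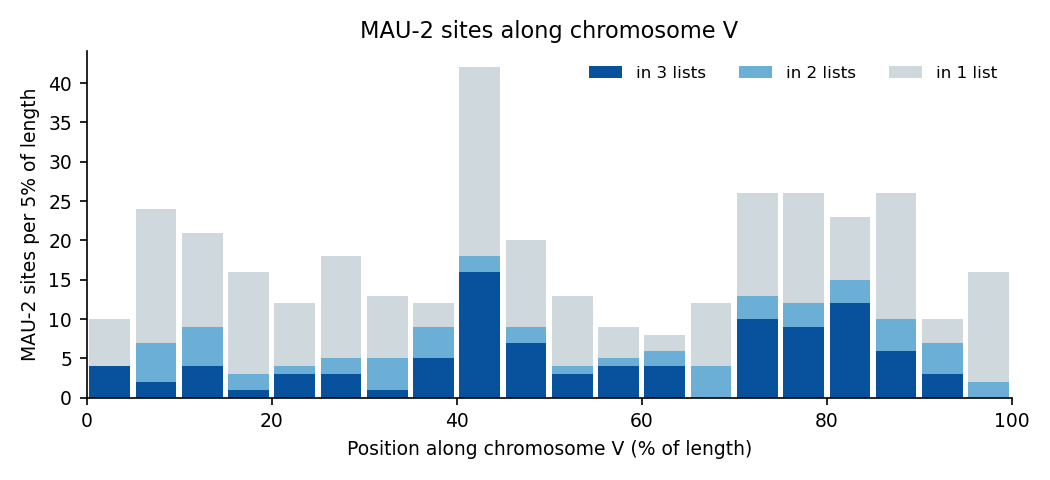
Number of MAU-2 sites in each 5% of the length of chromosome V, stacked by how many of the 3 lists hold the site. The tallest bar lies just right of 40% of the length, and the last bar holds no site in all 3 lists.

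Sparse stretches lay in the centre of V as well as in its arms. There were 24 gaps of at least 200 kb with no site in any list, together 33.8% of V, of which 9 lay in the left end region, 9 in the centre and 6 in the right. They took 36.1%, 41.8% and 23.6% of these regions, the highest share being that of the centre. The longest, 522.5 kb from 5549783 to 6072313, was in the left end region. Next came 444.9 kb from 13440654 to 13885520 and 386.6 kb from 9503830 to 9890454, both central. The right arm held a gap of 386.4 kb from 16709501 to 17095888, between a wide site in all 3 lists that ends at 16709500 and a replicate 1 site that begins at 17095889. The fifth was 378.9 kb long, from 10775093 to 11153997. From 13366480 to 14689255, a stretch of 1.32 Mb, there were 13 sites, none of them in all 3 lists. Gaps on the other chromosomes are not given here, so none of this is shown to be particular to V.

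The left arm from 1 to 4 Mb had many sites and few in all 3 lists. Its 3 bins of 1 Mb held 24, 17 and 19 sites, of which 2, 2 and 3 were in all 3 lists and 11, 10 and 15 in replicate 1 alone. On the right, the last 1.20 Mb after 19723285 held 18 sites and none in all 3 lists, with 11 in replicate 1 alone. The bin from 17 to 18 Mb, by contrast, had 13 of 27 sites in all 3 lists.

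The tips of V differed. The first site began at base 1, was 376 bp wide and was in all 3 lists, with scores of 1259 in replicate 1, 285.7 in replicate 2 and 25.62 in the series-wide list. The last site, 336 bp from 20923845 to 20924180, was in the series-wide list alone. It scored 21.73 there, the highest of the 27 sites of that class, the next being 7.90. The length of V was taken from the end of this site, so its place at the tip is set by that choice. Whether the site runs past the true end of the chromosome was not checked.

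Sharp sites were defined as those in all 3 lists and up to 750 bp wide. There were 46 of them, 12.9% of V sites (9.59 to 16.8) beside 16.3% of all nuclear sites, with 8 in the left end region, 17 in the centre and 21 in the right. The widest was 749 bp, and the narrowest site in all 3 lists past the limit was 753 bp. At 43 of the 46, each list had exactly 1 peak. Peak midpoints in the replicates lay a median of 17.25 bp apart, 36 of 46 within 50 bp and 43 within 100 bp, with a maximum of 176 bp. Sites of up to 750 bp leave little room between midpoints, so this closeness is in part by construction. Series-wide peaks were the narrowest, with a median of 304 bp, against 478.5 bp in replicate 1 and 430.5 bp in replicate 2, and both replicate peaks were wider than the series-wide one at 34 sites. Replicate 1 peaks were wider than replicate 2 peaks at 30 of the 46.

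The sharp site with the highest series-wide score lay at 12303330 to 12304008, with scores of 853.0 in replicate 1, 490.4 in replicate 2 and 46.21 in the series-wide list. Midpoints of its replicate peaks were 25.5 bp apart. It lies at the right edge of a gap of 300.7 kb, whose left edge is a site of 753 bp with scores of 807.6, 546.4 and 40.89. The second, from 1104533 to 1105281, scored 1381, 573.4 and 41.38, the highest sharp-site score in both replicates. It was 1 of only 8 sharp sites in the left end region. The third, from 18709770 to 18710422, scored 171.1, 248.5 and 33.09 and was higher in replicate 2, with ranks of 120 of 328 and 46 of 141 in the replicates. Next came the site from 15873569 to 15874171, which scored 647.4, 309.1 and 31.24, and the fifth, from 12596632 to 12597259, scored 565.3, 226.8 and 25.98.

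The sixth was the site at the left tip. Next followed the sites from 9503305 to 9503829, with midpoints 2 bp apart and scores of 406.2, 314.0 and 25.40, and from 9969995 to 9970570, with 403.6, 155.7 and 25.06. The ninth, from 17392176 to 17392911, belongs to the group of 9 sites and had the largest distance between replicate midpoints, 176 bp. The tenth, from 14689256 to 14689773, scored 159.1, 154.0 and 23.35. Over all 46, replicate 1 scores lay between 60.65 and 1381, replicate 2 scores between 52.44 and 573.4 and series-wide scores between 3.50 and 46.21. The smallest V scores of these lists, in that order, were 50.27, 50.28 and 1.31. None of the 46 reached 3100. A site just past the width limit, 804 bp from 12509884 to 12510687, scored 45.31 in the series-wide list and 1427 in replicate 1 but 107.7 in replicate 2. It was chosen after its values were seen.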

How the data were processed

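Peak lists of 2 ChIP replicates and 1 series-wide list were used. The submitters' processing notes name BWA, with no version, and the build ce10. Build WS220 and the caller, MACS for the replicates and MACS v2 for the series-wide list, are named per the file headers and columns. Not given in the sources used here are the thresholds, the use of input and whether replicates were pooled. The deposited score of each peak is on an unnamed scale. Depth is unknown.

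V peaks sharing at least 1 bp were merged. The highest listed coordinate of V served as its length. Counts of V against the other nuclear chromosomes were compared by Fisher's exact test (two-sided), with Benjamini-Hochberg adjustment over 2 tests, and shares have exact Clopper-Pearson intervals at 95%. Regions named are the 10 widest sites, the 10 sharp sites with the highest series-wide score, all groups of 4 or more sites, the 5 longest gaps and the first and last sites. Other sites named were chosen after their values were seen: all V sites of the 16833 bp stretch, those with extreme replicate ratios, and the further wide sites. Members, lists and limits were chosen with earlier results of these data known. Alternatives were merging within 1000 bp, the higher-scoring 50%, other limits, a reciprocal overlap of 50%, leaving out wide and end peaks, and each replicate left out. Added after seeing the data were merged sites in place of peaks, the wide comparison in each replicate list and other widths, leaving out the densest 100000 bp of each chromosome, and wide sites merged within 1000 bp. The merging, grouping and overlap steps were tested on simulated data. Python 3.11.15, scipy 1.17.1 and pandas 2.3.3 were used. Gene annotation and base composition of sites were not analysed here, since no genome or gene coordinates of this build were used.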

Additional observations from a re-analysis of the deposited data

How the results depend on the processing

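Of 45 recomputed values, 23 kept their direction and side of the threshold, or moved by less than their limit. The others fall among the values below, which give both values wherever a replicate was left out, also where 1 or both held. Counts of V sites were 176 in the higher-scoring 50% of each list and 184 to 359 with a replicate left out, the latter close to the 357 of all lists. The share held by every list in use was 33.7% to 58.7% with a replicate left out. The share of series-wide V peaks in both replicate lists turned to 26.7% with a reciprocal overlap of 50%. It lost significance in the higher-scoring 50% (85.6% against 84.0%, Fisher's exact p = 0.873), without the densest 100000 bp of each chromosome (70.3% against 63.7%, p = 0.0988), as merged sites (62.2%) and against 1 replicate list at a time (75.4% to 79.0%), and kept it without wide and end peaks (66.9%). The comparison of wide peaks passed only in replicate 2 (12.8%). Wide sites numbered 54 over 1000 bp and 11 over 3000 bp, groups 3 in the higher-scoring 50%. Site-free gaps numbered 75 at 100 kb and 10 at 300 kb, 40 in the higher-scoring 50%, and 24 to 38 with a replicate left out, the 24 being unchanged. Sharp sites numbered 17 up to 500 bp and 21 in the higher-scoring 50%, and 61 to 72 in both lists left when 1 replicate was dropped, of which 61 is within 1.5 times the 46 of all lists. End regions of 25% held 51.5% of sites. With a replicate left out, wide sites (18 to 19), groups (8 to 14) and the end-region share (67.4% to 69.4%) held. Other limits, fewer peaks or fewer lists change these counts by construction. For the share in both replicate lists the cause was not tested. No paired analysis was possible because only ChIP lists were used, and input files were not analysed here. Lists without read numbers leave the limits set by depth unknown.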
